A study of Mus musculus with 12 samples.

Results

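Cells keep proteins folded with chaperones, and 35 mouse genes of that machinery were followed here across tumour-associated macrophages (TAMs). The genes were given by name as heat shock and endoplasmic reticulum (ER) stress genes, and all 35 were found among the 36439 genes of each count table. RNA sequencing had been done on 12 libraries of F4/80+ TAMs, F4/80 being a surface protein of mouse macrophages. They were isolated from Lewis lung carcinoma, a transplantable mouse lung tumour, grown subcutaneously in C57BL/6 mice. Of 4 groups with 3 libraries each, the sorted pair was F4/80+MRC1+ TAMs, which carry the mannose receptor, and F4/80+CD11c+ TAMs, which carry an integrin shared with dendritic cells. The other pair consisted of F4/80+ TAMs with overexpression of miR-511-3p, which is a microRNA encoded within the Mrc1 gene, and F4/80+ TAMs with overexpression of its mutated form. These are labelled SFFV.miR-511-3p and SFFV.miR-511-3p-mut. How the constructs were delivered, what share of the cells carried them, the age and sex of the mice and the mutated bases are not known here. No source says that the numbered libraries of a group came from separate mice, so every p-value below speaks of the scatter among these libraries alone, and that scatter may be technical.

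The heat shock response is a cytosolic programme in which the transcription factor HSF1 raises chaperones of the HSP70, HSP90, J protein and small heat shock protein families when proteins misfold. The unfolded protein response (UPR) is its counterpart in the ER. The membrane sensors IRE1, PERK and ATF6 detect misfolded protein there, and the transcription factors XBP1, ATF4 and cleaved ATF6 then raise ER chaperones, degradation factors and amino acid genes. Macrophages secrete much protein, and XBP1 is known for its part in the biology of dendritic cells and plasma cells.

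Levels are TMM CPM, reads of a gene over the reads counted to genes, as CPM, after TMM scaling over the 12 libraries. Reads counted to genes ranged from 15664146 to 17689064 in MRC1+ TAMs, from 10824918 to 17318957 in CD11c+ TAMs, from 23326219 to 27186233 in miR-511-3p TAMs and from 22906418 to 27890433 in mutated miR-511-3p TAMs. The sort genes followed the labels: Mrc1 stood at 3357 to 3779 CPM in MRC1+ TAMs against 1364 to 1707 CPM in CD11c+ TAMs, and Itgax, which encodes CD11c, at 73.1 to 113 CPM in MRC1+ TAMs against 889 to 983 CPM in CD11c+ TAMs. Mir511 had 63 to 80 reads per miR-511-3p library against 3 to 9 per mutated miR-511-3p library, from transcripts over the hairpin, since the kit is not made for mature microRNAs. The mutated bases are not known here, so whether reads of the mutated hairpin would be counted to Mir511 is not known either. All 10 macrophage markers looked at were present in every library, with a summed level of 10567 to 13157 CPM in MRC1+ TAMs, 10838 to 13291 CPM in CD11c+ TAMs, 15566 to 17654 CPM in miR-511-3p TAMs and 15473 to 17987 CPM in mutated miR-511-3p TAMs. Within CD11c+ TAMs, fibroblast markers set library 1 apart, with a summed level of 1299 CPM against 313 and 368 CPM in the other CD11c+ libraries. Their sum in MRC1+ TAMs was 982, 727 and 934 CPM, so CD11c+ libraries 2 and 3 were the lowest of the sorted libraries.

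All 35 genes were expressed and passed the filter on low counts in both comparisons. Scaled by the length of the principal transcript, so that genes can be compared, the 3 highest levels in every group were Hsp90ab1, Calr and Hspa5. Hsp90ab1, the constitutive cytosolic HSP90, stood at 553 CPM per kb in MRC1+ TAMs and 605 in CD11c+ TAMs, and at 652 in miR-511-3p TAMs and 649 in mutated miR-511-3p TAMs. Calr, the ER lectin chaperone calreticulin, stood at 375 CPM per kb in MRC1+ TAMs, 444 in CD11c+ TAMs, 555 in miR-511-3p TAMs and 523 in mutated miR-511-3p TAMs. Hspa5, the ER HSP70 known as BiP, stood at 332 CPM per kb in MRC1+ TAMs, 403 in CD11c+ TAMs, 424 in miR-511-3p TAMs and 375 in mutated miR-511-3p TAMs. At the low end in the sorted groups, Bag3, an HSP70 cofactor of selective autophagy, had 8.63 CPM per kb in MRC1+ TAMs and 9.34 in CD11c+ TAMs, and Hsf1 had 9.70 in MRC1+ TAMs and 9.09 in CD11c+ TAMs. The sensor kinase gene Eif2ak3, which encodes PERK, lay close to them, with 8.72 CPM per kb in MRC1+ TAMs and 9.94 in CD11c+ TAMs. The small heat shock protein gene Hspb1 had the lowest level of the overexpression libraries, 2.40 CPM per kb in miR-511-3p TAMs and 4.26 in mutated miR-511-3p TAMs.

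The sorted comparison asks how MRC1+ and CD11c+ TAMs differ in these genes. Of the 35 genes, 4 ER stress genes fell in MRC1+ TAMs, Herpud1, Xbp1, Atf6 and Sdf2l1, to between 0.60 and 0.80 of the CD11c+ level. None of the 5 ER chaperones, none of the 5 ER lectins and disulfide isomerases and no cytosolic heat shock gene passed the test, and neither did Atf4 or Ddit3. By the edgeR quasi-likelihood test, with p adjusted over all genes by Benjamini-Hochberg, 4 of the 35 genes passed an adjusted p of 0.05. All 4 were lower and made up 11.4%, where 9.71% of the 15622 genes tested were called lower, 6.91% higher and 16.6% in either direction. The share called thus lay near that of all genes, as did the 10 genes with an unadjusted p below 0.05 (28.6%, against 33.3%). In 13 of the 35 genes (37.1%) all MRC1+ libraries lay below all CD11c+ libraries, against 20.6% of all genes tested, and 1 gene, Hsf1, lay above without overlap (2.86%, against 17.7%). In either direction these were 40% of the 35 genes and 38.3% of all. The median log2 fold change was -0.151 over the 35 genes, with 28 below 0, and 0.012 over all genes. The median stayed negative in each alternative fit, from -0.218 to -0.100. In bulk libraries such as these, fewer cells of a type and less RNA per cell cannot be told apart.

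**Figure D1:**
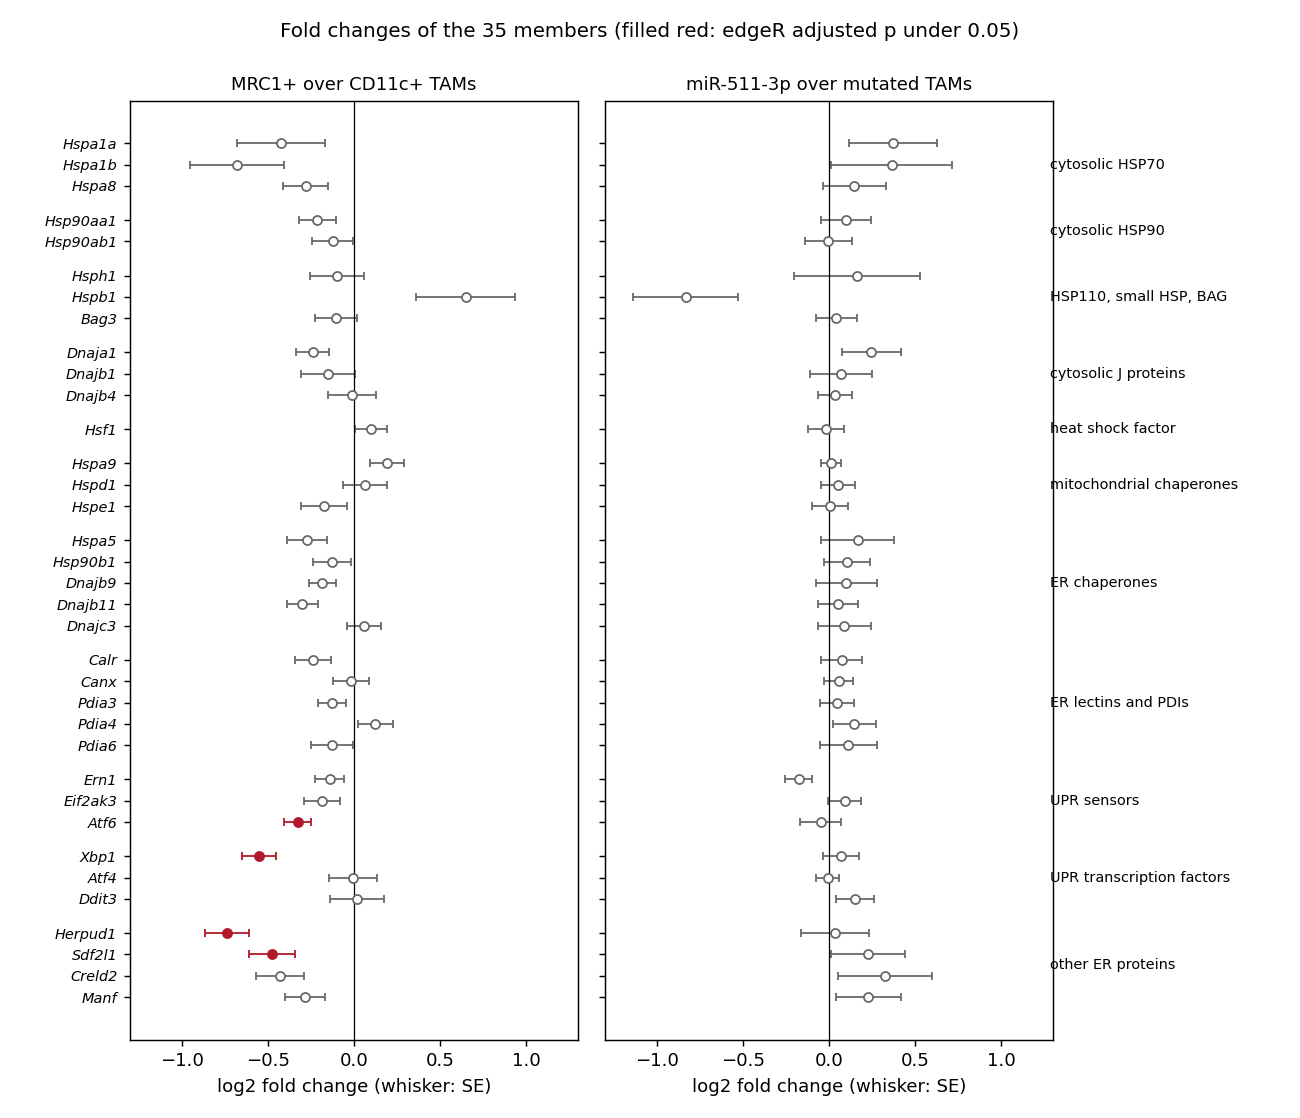
Log2 fold change of each of the 35 genes (rows, grouped by role) in MRC1+ over CD11c+ TAMs (left) and miR-511-3p over mutated miR-511-3p TAMs (right). Points are edgeR estimates from 3 libraries per group, whiskers are SE, and filled red points passed an adjusted p of 0.05. On the left 28 points lie below 0 and 4 are red, Atf6, Xbp1, Herpud1 and Sdf2l1. On the right 29 lie above 0 and none is red.

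Of the sensors, Atf6, a membrane-bound transcription factor that is cut and sent to the nucleus under ER stress, had 196, 195 and 183 CPM in MRC1+ TAMs, against 241, 239 and 242 CPM in CD11c+ TAMs. All MRC1+ values lay below all CD11c+ values, and the CD11c+ libraries differed from each other by about 1%. The log2 fold change was -0.33 ± 0.08 (SE, computed from edgeR's F statistic as the size of the fold change over the square root of F), with an edgeR adjusted p = 0.0271. This call rests on the full set of libraries: it was kept without CD11c+ library 1 (adjusted p = 0.0185) and lost without any of the other libraries (0.0551 to 0.118), as it was with no filter on low counts (0.0541). Ern1, which encodes IRE1, the kinase and RNase that splices Xbp1 mRNA, had 73.5, 85.1 and 82.9 CPM in MRC1+ TAMs, against 87.1, 92.4 and 87.8 CPM in CD11c+ TAMs. Its groups did not overlap, but at -0.14 ± 0.09 it did not pass (edgeR adjusted p = 0.286). Eif2ak3 had 41.0, 38.4 and 38.5 CPM in MRC1+ TAMs, against 49.5, 47.0 and 38.1 CPM in CD11c+ TAMs, where CD11c+ library 3 lay below the MRC1+ range (edgeR adjusted p = 0.260).

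Xbp1, the transcription factor that IRE1 activates by splicing, had 185, 182 and 164 CPM in MRC1+ TAMs, against 236, 275 and 268 CPM in CD11c+ TAMs. Every MRC1+ library lay below every CD11c+ library, with means of 177 ± 11.6 CPM in MRC1+ TAMs and 260.1 ± 20.8 CPM in CD11c+ TAMs (SD, n = 3 each). The log2 fold change was -0.55 ± 0.10 (SE), with an edgeR adjusted p = 0.00838 and a range of 7.6e-05 to 0.0405 over the alternative fits, so the call was kept in each of them. Counts per gene add up spliced and unspliced Xbp1, so they do not show how much was activated. Atf4, the transcription factor translated when PERK slows protein synthesis, had 129.6, 121 and 143 CPM in MRC1+ TAMs, against 114, 124 and 159 CPM in CD11c+ TAMs. The MRC1+ range lay inside the CD11c+ range, with a log2 fold change of -0.01 ± 0.14 (edgeR adjusted p = 0.985) whose sign turned in several alternative fits. Ddit3, which encodes the death-linked factor CHOP downstream of ATF4, had 15.4, 11.5 and 12.02 CPM in MRC1+ TAMs, against 13.3, 11.3 and 14.1 CPM in CD11c+ TAMs. Its groups overlapped, with a log2 fold change of 0.02 ± 0.16 (edgeR adjusted p = 0.956), and its counts were 714 reads over the MRC1+ and 593 over the CD11c+ libraries.

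Herpud1, an ER membrane protein of the degradation machinery and a UPR target, showed the largest called difference of the 35 genes. It had 115, 108 and 94.9 CPM in MRC1+ TAMs, against 158, 207 and 167 CPM in CD11c+ TAMs. All MRC1+ libraries lay below all CD11c+ libraries, and the means were 106 ± 10.1 CPM in MRC1+ TAMs and 177 ± 26.3 CPM in CD11c+ TAMs (SD, n = 3 each). The log2 fold change was -0.74 ± 0.13 (SE, edgeR adjusted p = 0.00648), and the call was kept without any single library (adjusted p of 0.00147 to 0.0297). Sdf2l1, an ER protein that works with BiP and its J proteins, had 70.3, 50.04 and 56.1 CPM in MRC1+ TAMs, against 85.2, 75.8 and 85.4 CPM in CD11c+ TAMs. The groups did not overlap, and the log2 fold change of -0.47 ± 0.13 stood just inside the threshold (edgeR adjusted p = 0.0470). It was lost without MRC1+ library 2 or 3 or CD11c+ library 2 or 3 (adjusted p of 0.0747 to 0.152), with upper-quartile scaling (0.0623) and with all 12 libraries in the fit (0.110).

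Creld2 and Manf encode ER proteins that are induced by ER stress and can be secreted. Creld2 had 36.9, 26.2 and 28.1 CPM in MRC1+ TAMs, against 41.3, 39.1 and 43.0 CPM in CD11c+ TAMs. Manf had 100.4, 77.5 and 78.3 CPM in MRC1+ TAMs, against 106, 104 and 103 CPM in CD11c+ TAMs. In both genes every MRC1+ library lay below every CD11c+ library and MRC1+ library 1 came closest. Neither passed, at -0.43 ± 0.14 for Creld2 (edgeR adjusted p = 0.0700) and -0.28 ± 0.12 for Manf (edgeR adjusted p = 0.128). Without MRC1+ library 1 both did (edgeR adjusted p = 0.0161 for Creld2 and 0.0259 for Manf), and Creld2 also passed with DESeq2 (0.0480) and with no filter on low counts (0.0465). All 4 of these ER proteins were lower without overlap, and their summed level was 323, 261 and 257 CPM in MRC1+ TAMs, against 391, 426 and 398 CPM in CD11c+ TAMs.

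**Figure D2:**
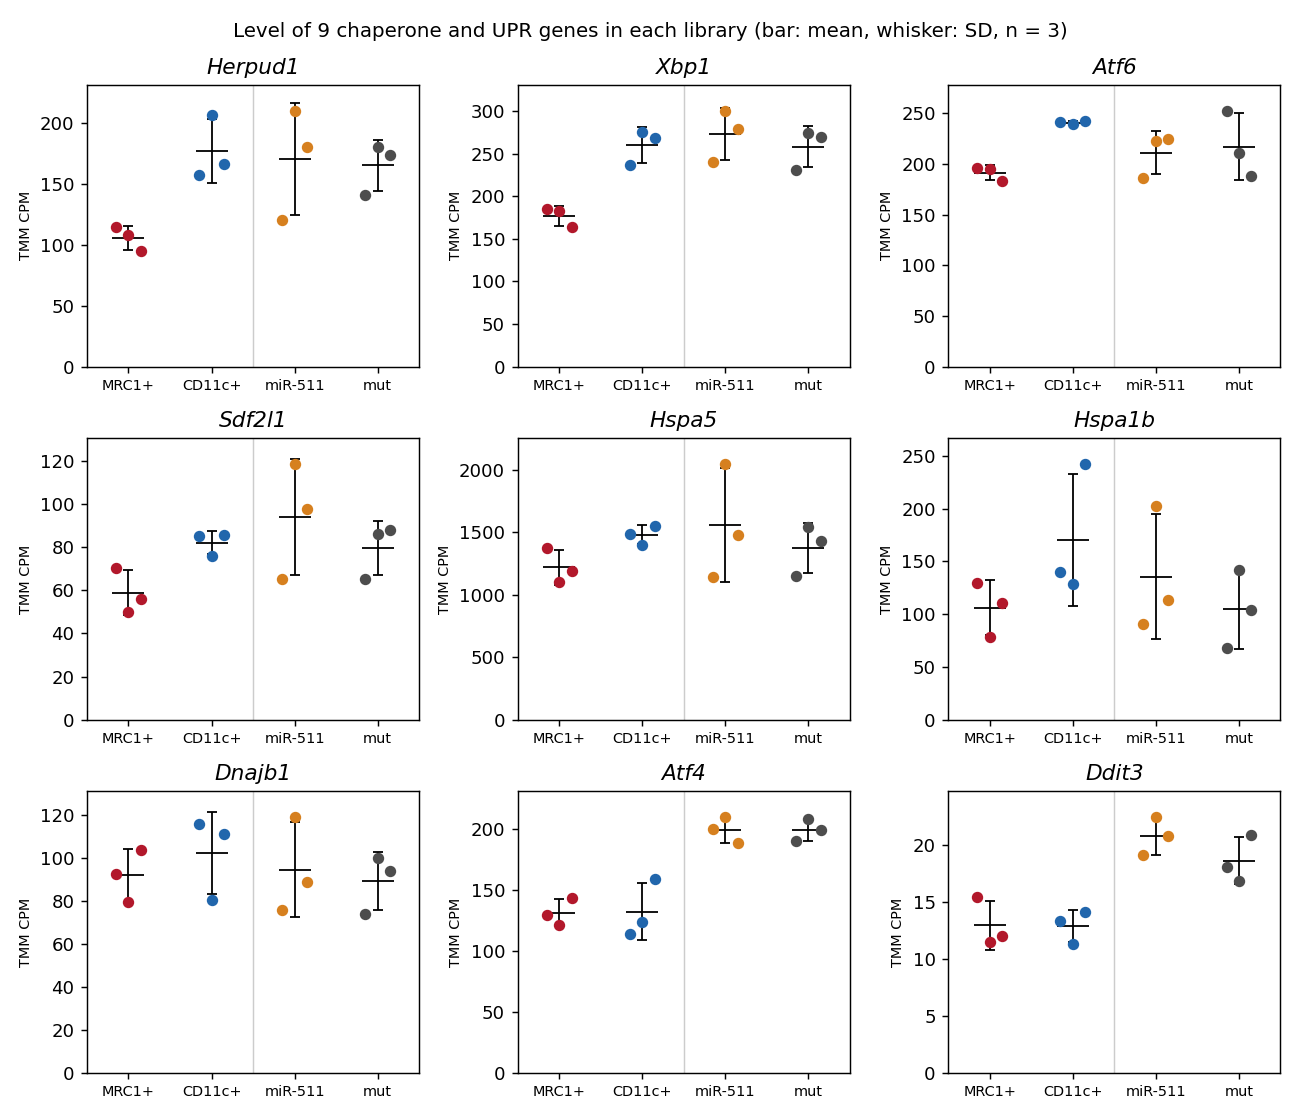
TMM CPM (vertical axis, from 0) of 9 of the genes in each library. Dots are the 3 libraries of a group, bars the mean and whiskers the SD. Left of the grey line stand MRC1+ and CD11c+ TAMs, right of it miR-511-3p and mutated miR-511-3p TAMs. Herpud1, Xbp1, Atf6 and Sdf2l1 separate MRC1+ from CD11c+ TAMs, as does Hspa5, which did not pass the test, while Hspa1b, Dnajb1, Atf4 and Ddit3 overlap. In miR-511-3p TAMs library 2 is the highest of its group for Hspa5 (2048 CPM) and Herpud1 (211 CPM).

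The 180 bases upstream of the start are shown for 3 of the genes that fell, and for Creld2, Hspa5 and Hspe1 as genes that did not pass but hold a match to a stress element. Sequences are from RefSeq on GRCm38.p6, on the strand of the gene, and capitals mark each match to the motifs searched, with its spacer. They are Herpud1 (chr8:94386249-94386428, plus strand), Creld2 (chr15:88819466-88819645, plus), Hspa5 (chr2:34771910-34772089, plus), Xbp1 (chr11:5520461-5520640, plus), Sdf2l1 (chr16:17132384-17132563, minus) and Hspe1 (chr1:55087968-55088147, plus).
Herpud1: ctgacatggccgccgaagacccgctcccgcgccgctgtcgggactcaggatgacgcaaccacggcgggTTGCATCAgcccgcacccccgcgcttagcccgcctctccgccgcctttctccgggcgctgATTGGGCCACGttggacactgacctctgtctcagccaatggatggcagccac
Creld2: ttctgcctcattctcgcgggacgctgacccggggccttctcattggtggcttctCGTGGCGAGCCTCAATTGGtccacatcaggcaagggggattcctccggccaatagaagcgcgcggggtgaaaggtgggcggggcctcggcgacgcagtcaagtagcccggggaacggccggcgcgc
Hspa5: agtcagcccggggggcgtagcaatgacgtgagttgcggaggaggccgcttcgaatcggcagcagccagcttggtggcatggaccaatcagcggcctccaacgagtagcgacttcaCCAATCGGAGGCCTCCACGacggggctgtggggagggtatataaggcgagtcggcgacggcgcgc
Xbp1: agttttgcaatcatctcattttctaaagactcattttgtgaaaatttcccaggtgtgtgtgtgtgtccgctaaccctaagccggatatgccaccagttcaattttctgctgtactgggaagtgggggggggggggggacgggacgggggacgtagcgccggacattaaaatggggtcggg
Sdf2l1: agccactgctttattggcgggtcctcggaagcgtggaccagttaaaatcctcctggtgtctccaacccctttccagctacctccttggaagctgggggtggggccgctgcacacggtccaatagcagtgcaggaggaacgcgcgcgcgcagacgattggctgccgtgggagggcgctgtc
Hspe1: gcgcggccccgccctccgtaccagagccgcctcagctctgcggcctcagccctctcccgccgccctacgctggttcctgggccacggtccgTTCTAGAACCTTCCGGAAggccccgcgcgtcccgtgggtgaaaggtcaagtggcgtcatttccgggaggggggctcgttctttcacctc

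The motifs ERSE, ERSE-II, heat shock element, UPR element and ATF4 element were searched on both strands, with overlaps allowed, in RefSeq windows running 250 bases before to 50 after each start, which 28 of the 35 genes had. The ER stress element ERSE was found in 39 of 32851 windows (0.119%), and among the 35 genes in Hspa5, Hsp90b1, Dnajc3, Calr, Canx, Pdia6 and Creld2, 7 of 18 ER genes with a window and 0 of 10 others. ERSE-II, a second form of that element, was found in 12 windows (0.0365%), those of Herpud1 and Dnajb11 among them. The heat shock element, the site of HSF1, was found in 198 windows (0.603%), among them Hsph1, Hspd1 and Hspe1. The windows of Hspd1 and Hspe1 overlap, since the genes run apart from a shared start region, so they hold the same bases. TGACGTGG, a UPR element, was in 222 windows (0.676%) and in none of the 28 genes, and TGATGNAA, an element bound by ATF4 with C/EBP partners, in 1304 windows (3.97%) and in Herpud1. The motifs are consensus sequences from general knowledge of these factors, and a match is a run of letters and not a site shown to be used. Xbp1 and Sdf2l1, which fell, had no match in these windows. Atf6 was not among the genes with a match, and whether it had a window is not given here. Of the 9 genes with ERSE or ERSE-II 1, Herpud1, passed the test in the sorted comparison, where 16.6% of all genes passed and 9.71% were lower. Herpud1, Creld2, Hspa5, Calr and Dnajb11 were lower in MRC1+ TAMs without overlap, as were 20.6% of all genes. Hsp90b1, Dnajc3, Canx and Pdia6 overlapped.

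Among the ER chaperones, Dnajb11, a J protein that hands clients to BiP, came nearest to the threshold. It had 118, 101 and 102 CPM in MRC1+ TAMs, against 133, 133 and 132 CPM in CD11c+ TAMs. The CD11c+ values nearly coincided and lay above every MRC1+ value, at -0.30 ± 0.09 (edgeR adjusted p = 0.0589). It passed with DESeq2 (0.0494), without MRC1+ library 1 (edgeR adjusted p = 0.0352) and without CD11c+ library 1 (0.0466). Hspa5 had 1371, 1100 and 1187 CPM in MRC1+ TAMs, against 1487, 1400 and 1552 CPM in CD11c+ TAMs. The groups did not overlap, but the gap between MRC1+ library 1 and CD11c+ library 2 was small beside the spread within MRC1+ TAMs, and the difference of -0.27 ± 0.12 did not pass (edgeR adjusted p = 0.144). Dnajb9, an ER J protein that restrains IRE1, had 48.5, 45.9 and 48.7 CPM in MRC1+ TAMs, against 55.6, 52.1 and 55.5 CPM in CD11c+ TAMs. It was again lower without overlap and did not pass, at -0.18 ± 0.08 (edgeR adjusted p = 0.151). Hsp90b1, the ER HSP90 known as GRP94, had 643, 573 and 574 CPM in MRC1+ TAMs, against 738, 630.4 and 598 CPM in CD11c+ TAMs, and Dnajc3, a J protein that also inhibits PERK, had 247, 226 and 211 CPM in MRC1+ TAMs, against 236, 224 and 200.5 CPM in CD11c+ TAMs. Both overlapped between the groups.

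The lectins and protein disulfide isomerases that fold glycoproteins gave no call. Calr had 907, 752 and 797 CPM in MRC1+ TAMs, against 971, 938 and 999.7 CPM in CD11c+ TAMs, lower without overlap at -0.24 ± 0.11 (edgeR adjusted p = 0.158). Pdia3, the isomerase that works with calreticulin, had 262, 252 and 257 CPM in MRC1+ TAMs, against 289, 290.3 and 267 CPM in CD11c+ TAMs, also without overlap but at a small -0.13 ± 0.08 (edgeR adjusted p = 0.309). Canx, the membrane-bound partner of calreticulin, and the isomerase genes Pdia4 and Pdia6 overlapped, with log2 fold changes of -0.02, 0.12 and -0.13. Pdia4 was thus 1 of the 7 genes above 0.

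**Figure D3:**
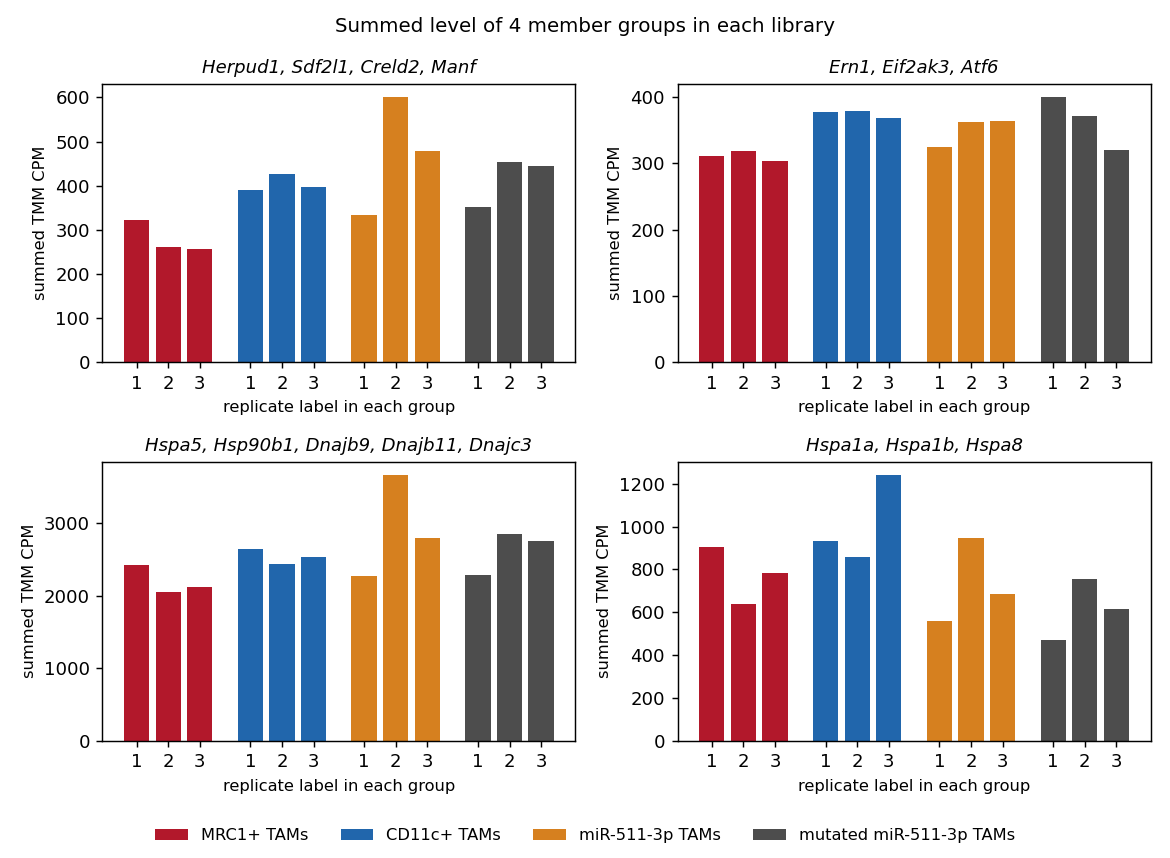
Summed TMM CPM (vertical axis, from 0) of 4 groups of the genes, 1 bar per library, in the order MRC1+, CD11c+, miR-511-3p and mutated miR-511-3p TAMs. The sums of Herpud1, Sdf2l1, Creld2 and Manf and of the sensors Ern1, Eif2ak3 and Atf6 are lower in each MRC1+ than in each CD11c+ library. The sum of Hspa5, Hsp90b1, Dnajb9, Dnajb11 and Dnajc3 is lower too, by a narrow gap. It is 2046 to 2428 CPM in MRC1+ TAMs and 2440 to 2648 CPM in CD11c+ TAMs. The sum of Hspa1a, Hspa1b and Hspa8 overlaps, with the highest value, 1240 CPM, in CD11c+ library 3.

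No cytosolic heat shock gene passed between the sorted groups, and the inducible HSP70 genes varied widely within them. Hspa1a and Hspa1b, the stress-inducible HSP70 genes, are near-identical neighbours. Of the 50-base stretches of their transcripts, 58.8% for Hspa1a and 62.3% for Hspa1b also occur in the other. Reads of that length from there would align to both genes and fall among the uncounted reads aligned to several places. The read length is not given here, so the share of reads lost for these genes is not known. Hspa1b had 129.7, 78.0 and 110.5 CPM in MRC1+ TAMs, against 139.9, 129 and 243 CPM in CD11c+ TAMs. The groups overlapped narrowly and CD11c+ library 3 stood high, with a log2 fold change of -0.68 ± 0.27 (edgeR adjusted p = 0.124). It passed with DESeq2 (0.0407) and with no filter on low counts (0.0308). Hspa1a had 229, 138 and 205 CPM in MRC1+ TAMs, against 225, 197 and 348 CPM in CD11c+ TAMs, with overlap and -0.42 ± 0.25 (edgeR adjusted p = 0.281). Between the highest and the lowest library of a group, Hspa1b differed 1.66-fold in MRC1+ TAMs and 1.88-fold in CD11c+ TAMs, while the median over the 35 genes was 1.18-fold in MRC1+ TAMs and 1.22-fold in CD11c+ TAMs.

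Hspa8, the constitutive HSP70, had 547, 423 and 466 CPM in MRC1+ TAMs, against 567, 534 and 649 CPM in CD11c+ TAMs, overlapping by MRC1+ library 1 (edgeR adjusted p = 0.176). Dnaja1, a J protein that loads HSP70, had 78.9, 67.8 and 72.2 CPM in MRC1+ TAMs, against 91.2, 79.5 and 89.2 CPM in CD11c+ TAMs. The groups did not overlap but came within 1 CPM of each other (MRC1+ library 1 and CD11c+ library 2), and the difference of -0.24 ± 0.10 did not pass (edgeR adjusted p = 0.124). Dnajb1, a J protein often used as a read-out of HSF1, had 92.8, 79.5 and 104 CPM in MRC1+ TAMs, against 116, 80.7 and 111 CPM in CD11c+ TAMs. The groups overlapped almost fully, with the second library of each group lowest, at -0.15 ± 0.16 (edgeR adjusted p = 0.541). Hsp90aa1 and Hsp90ab1, the inducible and the constitutive HSP90, stood at -0.21 ± 0.11 and -0.12 ± 0.12 and overlapped, as did the co-chaperones Hsph1 and Bag3 at -0.10 each and Dnajb4 at -0.01. Hspb1, which encodes the small heat shock protein HSP27, went the other way, with 10.3, 11.03 and 18.6 CPM in MRC1+ TAMs, against 10.6, 5.79 and 9.37 CPM in CD11c+ TAMs. Its groups overlapped, with MRC1+ library 3 high and CD11c+ library 2 low, and 0.65 ± 0.29 did not pass (edgeR adjusted p = 0.157).

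Hsf1 itself had 19.4, 21.2 and 20.01 CPM in MRC1+ TAMs, against 18.6, 19.2 and 19.0 CPM in CD11c+ TAMs. It was the 1 gene of the 35 that was higher in MRC1+ TAMs without overlap, by less than 0.2 CPM at the closest libraries and with a log2 fold change of 0.10 ± 0.09 (edgeR adjusted p = 0.497). The mitochondrial chaperones Hspa9, Hspd1 and Hspe1, which fold imported proteins, stood at 0.19 ± 0.10, 0.06 ± 0.13 and -0.17 ± 0.13, overlapped between the groups and gave edgeR adjusted p-values of 0.222, 0.761 and 0.402.

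Other genes of these pathways were taken from lists outside the 35. Of 40 further ATF6 and XBP1 targets and ER factors, 4 fell and none rose in MRC1+ TAMs (10% called lower, near the 9.71% of all genes). Of these 40 genes 27 lay below 0 and 15 were lower without overlap (37.5%, against 20.6% of all genes), with a median log2 fold change of -0.125. Ero1lb, an ER oxidase that re-oxidises disulfide isomerases, had 45.9, 43.5 and 41.1 CPM in MRC1+ TAMs, against 75.9, 82.2 and 92.0 CPM in CD11c+ TAMs, with -0.93 ± 0.10 (edgeR adjusted p = 0.000844). Edem1, a lectin that routes misfolded glycoproteins to degradation, had 374, 363 and 351 CPM in MRC1+ TAMs, against 548, 551 and 545 CPM in CD11c+ TAMs, with -0.59 ± 0.08 (edgeR adjusted p = 0.00253). Both were lower in every MRC1+ library and kept their calls without any single library. Hyou1, the large HSP70-like chaperone of the ER, stood at -0.33 ± 0.08 (edgeR adjusted p = 0.0315), and lost its call without any single library but CD11c+ library 1 (0.0598 to 0.145).

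Of 29 tested genes of the PERK and ATF4 arm, 3 rose and 5 fell (27.6% called, against 16.6% of all genes), or 4 and 8 once replicate number was a block, and the median was 0.029. Slc7a11, the cystine transporter, had 114, 102 and 153 CPM in MRC1+ TAMs, against 362, 455 and 664 CPM in CD11c+ TAMs, with -2.01 ± 0.25 (edgeR adjusted p = 0.00134). Ddit4, an inhibitor of mTORC1, had 28.6, 22.1 and 27.2 CPM in MRC1+ TAMs, against 56.5, 55.4 and 74.2 CPM in CD11c+ TAMs, with -1.25 ± 0.15 (edgeR adjusted p = 0.00134). Gpt2, an alanine transaminase, rose, with 60.4, 61.0 and 68.4 CPM in MRC1+ TAMs, against 21.2, 23.2 and 18.7 CPM in CD11c+ TAMs (1.59 ± 0.10, edgeR adjusted p = 7.8e-05). Genes listed for this arm thus moved in both directions, with log2 fold changes from -2.01 to 2.17, while Atf4 and Ddit3 overlapped between the groups. Of 28 further cytosolic chaperones and cofactors, Hsbp1, whose protein binds HSF1, was the 1 that rose and none fell. It had 105, 96.9 and 97.6 CPM in MRC1+ TAMs, against 68.5, 78.1 and 76.3 CPM in CD11c+ TAMs, with 0.43 ± 0.09 (edgeR adjusted p = 0.0151), and lost its call without MRC1+ library 2 (0.0518) or 3 (0.0535). With the block 2 genes of that list rose and 1 fell. None of 13 chaperonin and prefoldin genes and none of 13 mitochondrial stress genes passed in edgeR, where 1 and 3 had an unadjusted p below 0.05, and none passed with the block.

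Several marker lists moved with the sorted groups. Of 12 dendritic cell markers 10 were lower in MRC1+ TAMs, with a summed level of 49.0 to 51.9 CPM in MRC1+ TAMs against 345 to 582 CPM in CD11c+ TAMs, and none was at 0 in all libraries. Of 12 cell cycle genes 6 rose in edgeR, and their sum was 1218 to 1255 CPM in MRC1+ TAMs against 931 to 1173 CPM in CD11c+ TAMs. All 6 tested carcinoma and epithelial markers passed, 4 higher and 2 lower, with sums of 139 to 205 CPM in MRC1+ TAMs and 114 to 168 CPM in CD11c+ TAMs, which overlap. Of 6 tested endothelial markers 2 rose and 3 fell, with a sum of 41.4 to 51.9 CPM in MRC1+ TAMs against 89.8 to 130.2 CPM in CD11c+ TAMs. Other lists had smaller shares called, where 16.6% of all genes were called in either direction. Of 9 tested T and NK cell markers 2 fell (22.2%), and of 6 tested neutrophil markers 1 fell (16.7%). Of 8 tested mitochondrially encoded genes 2 rose (25%), and of 10 macrophage markers 2 rose and 1 fell (30%). None of 12 fibroblast markers and none of 12 hypoxia genes passed in edgeR, where 2 and 4 had an unadjusted p below 0.05, and with the block 1 fibroblast marker rose, 1 hypoxia gene rose and 2 fell. All 12 fibroblast markers lay above 0, with a median log2 fold change of 0.543 against 0.012 over all genes. The part of any of these lists in the differences of Herpud1, Xbp1, Atf6 and Sdf2l1 was not tested. Of 8 tested B and plasma cell markers none passed in edgeR, 2 had an unadjusted p below 0.05 and 1 passed with the block. The sum of all 12 was 323 to 367 CPM in MRC1+ TAMs and 368 to 416 CPM in CD11c+ TAMs, most of it Sdc1 and Prdm1. The defining plasma cell gene Mzb1 lay at 0.06 to 0.10 CPM in MRC1+ TAMs and 0 to 0.61 CPM in CD11c+ TAMs. Of 17 immediate-early genes, which rise quickly when tissue is disturbed, 1 rose and 1 fell in edgeR (11.8%), and 2 rose and 4 fell with the block. Their sums were 5200, 4668 and 7410 CPM in MRC1+ TAMs, against 5634, 5792 and 9307 CPM in CD11c+ TAMs, so library 3 was highest in both groups. CD11c+ library 3 was also the highest for Hspa1a and Hspa1b, and the part of these genes in that value was not tested. Without CD11c+ library 1, which stood apart from the other CD11c+ libraries in fibroblast markers, 5 of the 35 genes passed, Dnajb11 in addition, and 29.6% of 15926 genes did.

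The overexpression comparison asks what miR-511-3p changes relative to its mutated form. None of the 35 genes passed and none separated the groups. Most had slightly higher means in miR-511-3p TAMs, but both the size and the sign of the median shift changed with the library left out. By the same edgeR test and adjustment 0 of 14054 genes passed (0.00%), 2.44% had an unadjusted p below 0.05, and of the 35 genes 1, Hspb1, did. The groups did not overlap for 6.48% of all genes (3.45% higher and 3.03% lower) and for 0 of the 35. With DESeq2, and with all 12 libraries in the fit, 1 gene passed, Mir511, and in a fit blocked by replicate number 1 gene (0.00712%), Hspg2. None of the 35 passed in any of them. The main fit did not call Mir511, which had 63 to 80 reads per miR-511-3p library against 3 to 9 per mutated miR-511-3p library. The 2.44% also lay below the share that evenly spread p-values would give. The lack of calls among the 35 genes therefore does not show that they were unchanged. Of the 35 genes 29 lay above 0 (82.9%), where 51.3% of all genes did, with a median log2 fold change of 0.075 against 0.003 over all genes. Without miR-511-3p library 2 the median became -0.041, and without miR-511-3p library 1 it became 0.203.

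Hspb1 had 2.01, 2.36 and 2.14 CPM in miR-511-3p TAMs, against 2.26, 4.23 and 5.05 CPM in mutated miR-511-3p TAMs. The groups overlapped by mutated library 1, and the counts were 154 reads over the miR-511-3p and 264 over the mutated miR-511-3p libraries. The log2 fold change was -0.83 ± 0.31 (SE), with an unadjusted p of 0.0296 and an adjusted p of 0.9999 in edgeR. Ern1 had 94.1, 87.9 and 92.3 CPM in miR-511-3p TAMs, against 106, 111 and 91.5 CPM in mutated miR-511-3p TAMs, overlapping by mutated library 3 (-0.18 ± 0.08, edgeR adjusted p = 0.9999). Hspa1a had 147, 273 and 163 CPM in miR-511-3p TAMs, against 119.9, 186 and 141 CPM in mutated miR-511-3p TAMs, at 0.37 ± 0.26. Hspa1b had 90.5, 203 and 113 CPM in miR-511-3p TAMs, against 67.6, 142 and 104 CPM in mutated miR-511-3p TAMs, at 0.36 ± 0.35. For both HSP70 genes the second library of each group was the highest and the first the lowest, and the groups overlapped.

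Hspa5 had 1140, 2048 and 1480 CPM in miR-511-3p TAMs, against 1153, 1542 and 1431 CPM in mutated miR-511-3p TAMs. Library 1 of both groups stood at nearly the same level and library 2 was the highest in both, with 0.17 ± 0.21 between the groups. Xbp1 had 239.7, 300.5 and 278 CPM in miR-511-3p TAMs, against 231, 274 and 269 CPM in mutated miR-511-3p TAMs, in the same order of libraries (0.07 ± 0.11). Manf had 105, 179 and 137 CPM in miR-511-3p TAMs, against 103, 128 and 125 CPM in mutated miR-511-3p TAMs (0.23 ± 0.19). Dnaja1 had 48.3, 64.2 and 53.5 CPM in miR-511-3p TAMs, against 35.3, 51.1 and 52.4 CPM in mutated miR-511-3p TAMs, with mutated library 1 lowest of all (0.25 ± 0.17). Atf4 varied little, with 199, 209.7 and 189 CPM in miR-511-3p TAMs, against 189.6, 208 and 199 CPM in mutated miR-511-3p TAMs. Ddit3 had 19.2, 22.5 and 20.8 CPM in miR-511-3p TAMs, against 18.1, 16.9 and 20.9 CPM in mutated miR-511-3p TAMs. Dnajb1 had 76.1, 119 and 89.0 CPM in miR-511-3p TAMs, against 74.1, 100.3 and 94.0 CPM in mutated miR-511-3p TAMs (0.07 ± 0.18). All of these gave an edgeR adjusted p of 0.9999.

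The libraries within a group differed together. In miR-511-3p TAMs, library 2 was the highest of its group for 32 of the 35 genes and library 1 the lowest for 30, while over all 14054 genes these shares were 33.7% and 36.5%. In mutated miR-511-3p TAMs, library 2 was the highest for 23 and library 1 the lowest for 29, against 35.6% and 28.9% of all genes. The widest ranges included genes of both compartments. Hsph1, an HSP70 exchange factor, had 112, 275 and 179 CPM in miR-511-3p TAMs, against 101, 204 and 196 CPM in mutated miR-511-3p TAMs. Creld2 had 42.3, 93.1 and 64.2 CPM in miR-511-3p TAMs, against 42.0, 59.1 and 57.3 CPM in mutated miR-511-3p TAMs. In both genes library 1 was the lowest of each group, and the means of the groups differed by less than the spread within them. Hspa9 went against this, with 386, 374 and 363 CPM in miR-511-3p TAMs, against 377, 365 and 362 CPM in mutated miR-511-3p TAMs, library 1 being the highest of both groups.

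**Figure D4:**
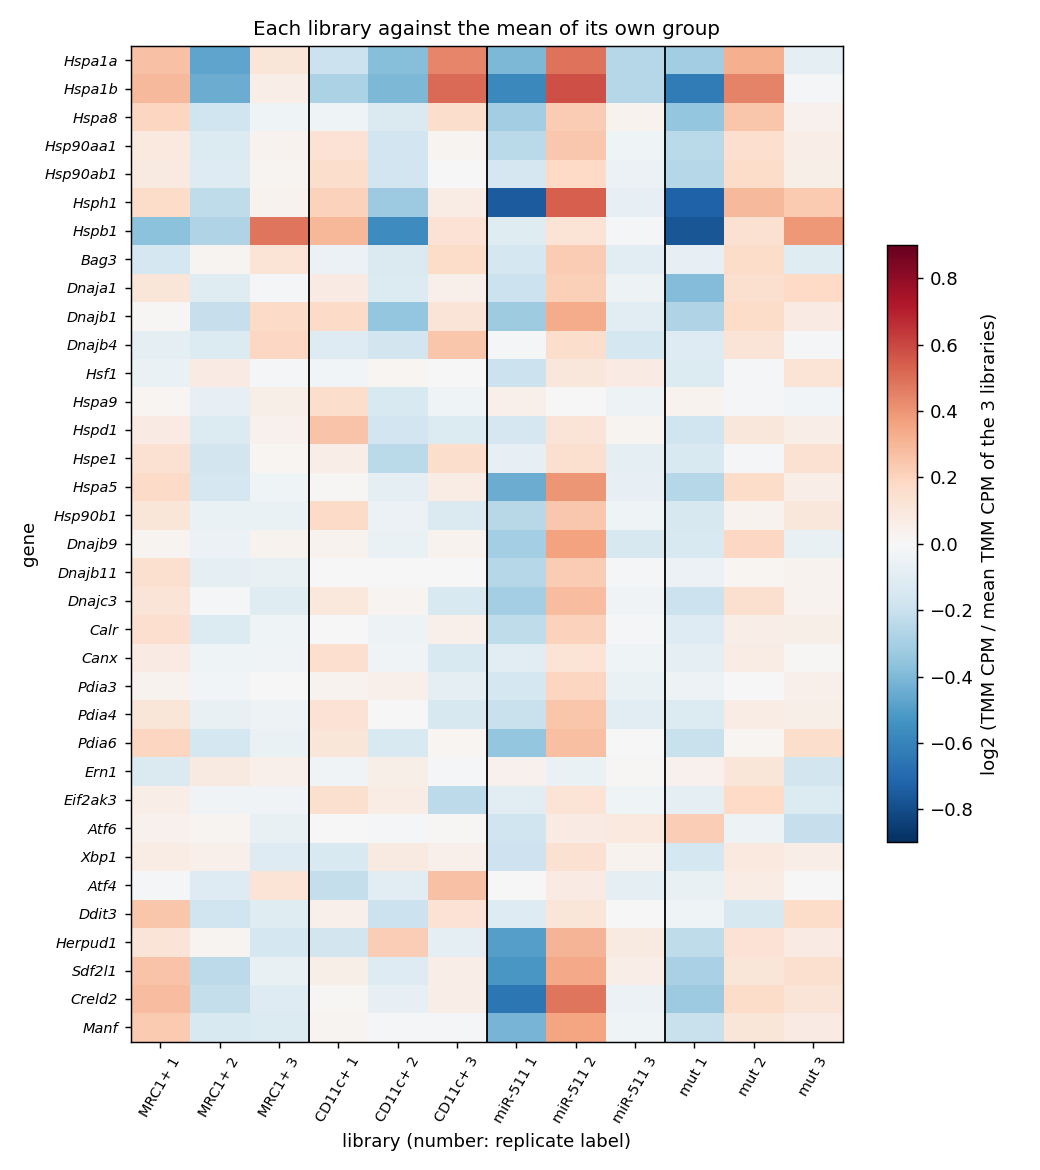
Log2 ratio of each library's TMM CPM to the mean of its own group of 3 libraries (colour, red above and blue below the mean) for the 35 genes (rows) in 12 libraries (columns). The columns of miR-511-3p library 1 and mutated library 1 are mostly blue, with median deviations of -0.20 and -0.16, and those of miR-511-3p library 2 and mutated library 2 mostly red, at 0.23 and 0.11. Single deviations reach from -0.77 to 0.58.

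The sorted libraries also differed together. MRC1+ library 1 was the highest of its group for 26 of the 35 genes and MRC1+ library 2 the lowest for 27, against 35.1% and 29.2% of all genes tested. In CD11c+ TAMs library 2 was the lowest for 22, against 24.3% of all genes, and library 1 the highest for 16. The median deviations were 0.108 for MRC1+ library 1, -0.119 for MRC1+ library 2 and -0.095 for CD11c+ library 2. Other lists also differed between the overexpression libraries of a group. Of 17 immediate-early genes, 15 were highest in miR-511-3p library 2 and 9 lowest in miR-511-3p library 1, and 11 were highest in mutated library 2 and 14 lowest in mutated library 1, with summed levels of 7633, 9447 and 7538 CPM in miR-511-3p TAMs, against 6598, 7967 and 7675 CPM in mutated miR-511-3p TAMs. None of the 17 passed in edgeR, and 1 had an unadjusted p below 0.05. Of 12 hypoxia genes, 12 were highest in miR-511-3p library 1 and 8 in mutated library 1, the libraries lowest for the chaperone genes, with sums of 2438, 2014 and 1832 CPM in miR-511-3p TAMs, against 2158, 2119 and 2048 CPM in mutated miR-511-3p TAMs. Of 12 cell cycle genes, 11 were highest in mutated library 1 and 12 lowest in mutated library 2, while no miR-511-3p library was highest for more than 5. Fibroblast markers were highest in library 3 of both groups, with 195, 176 and 416 CPM in miR-511-3p TAMs, against 281, 275 and 822 CPM in mutated miR-511-3p TAMs. The part of these lists in the shift of the chaperone genes was not tested.

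The seed of miR-511-3p, its bases 2 to 8, is shown in capitals in the mature sequence from RefSeq (chr2:14261051-14261072, plus strand, GRCm38.p6), followed by seed matches in 3′ UTRs of the 35 genes (GENCODE M21 on GRCm38, principal transcript, all on the minus strand), with the matched bases in capitals.
miR-511-3p: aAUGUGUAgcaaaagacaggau
Ern1: tgtagcgtTACACATccccagag
Atf6: aacacagtTACACATAaataataa
Dnajb9: tcagcccgACACATActtaacaa
The Ern1 match lies at chr11:106396332-106396354, the Atf6 match at chr1:170706642-170706665 and the Dnajb9 match at chr12:44206615-44206637. The Dnajb9 match shown is of a shorter kind, which pairs with the seed less its last base and is followed by an A, and Atf6 and Dnajb9 each hold 1 more of that kind. These 3 genes were 8.57% of the 35, where 18.2% of 11811 tested genes with a 3′ UTR had at least 1 match. Ern1 stood at -0.18 and Atf6 at -0.05 in miR-511-3p over mutated miR-511-3p TAMs, and Dnajb9 at 0.10. Atf6 had 186, 222 and 225 CPM in miR-511-3p TAMs, against 253, 210.3 and 188 CPM in mutated miR-511-3p TAMs, and Dnajb9 had 55.5, 88.3 and 62.1 CPM in miR-511-3p TAMs, against 57.7, 72.3 and 60.6 CPM in mutated miR-511-3p TAMs. Both overlapped between the groups. The median log2 fold change was -0.05 over the 3 genes and 0.08 over the other 32, against -0.02 over all genes with a match and 0.01 over those without.

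The labels do not say whether the overexpression and sorted libraries were made together. The libraries differ in reads over no gene (7.64% to 10.4% in the overexpression and 19.7% to 26.6% in the sorted libraries), so their levels are set side by side without a test. Mitochondrially encoded genes summed to 9268 to 10608 CPM in the overexpression and 2570 to 3262 CPM in the sorted libraries. Carcinoma and epithelial markers summed to 19.2 to 48.2 CPM in the overexpression and 114 to 205 CPM in the sorted libraries. The sorted libraries also hold MRC1+ or CD11c+ fractions only. In 8 genes every overexpression library lay above every sorted library (27.5% of 16306 genes did) and in 4 every one lay below (21.8% did). The ratio of means was largest for Bag3 at 3.36, with 70.4 to 92.3 CPM in the overexpression libraries and 19.8 to 26.9 CPM in the sorted libraries. Pdia3 stood at a ratio of 3.31, with 816 to 1040 CPM in the overexpression libraries and 252 to 290.3 CPM in the sorted libraries, while Pdia4 lay at 268 to 389 CPM in the overexpression and 354 to 456 CPM in the sorted libraries and overlapped. Hsf1 (ratio 1.92), Ddit3 (1.52), Atf4 (1.51), Dnajb11 (1.43), Hspa9 (1.41) and Calr (1.32) were also higher without overlap. Creld2 (1.67), Hsph1 (1.51) and Manf (1.36) had ratios in the same range but overlapped. Hspb1 had the lowest ratio at 0.274, and Hsp90aa1 (0.607), Dnaja1 (0.637) and Dnajb4 (0.713) were also lower without overlap. The part of the reads over no gene, of these lists and of the cell fractions in these differences was not tested.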

How the data were processed

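RNA libraries followed the Illumina TruSeq RNA guide, per the labels' protocols. The authors deposited raw counts of reads for each Ensembl gene. Bowtie, TopHat 1.2.0, SAMtools 0.1.12a, HTSeq and the build mm9 (NCBIM37) are named per the submitters' processing notes. The mode and strandedness of counting were not given in the sources at hand, so reads of a gene cannot be told from those of an overlapping or antisense one. From each deposited file, 5 summary entries were left out: reads over no gene (7.64% to 26.6%) and aligned to several places (12.8% to 20.1%) were the main ones. GENCODE M21 gave symbols to 31819 identifiers, and transcript lengths. Each comparison used edgeR 4.0.16 (R 4.3.3), glmQLFit and glmQLFTest, on its 6 libraries, with TMM, filterByExpr and Benjamini-Hochberg adjustment over all genes tested, threshold 0.05. The SE was derived from the F statistic. Alternatives were DESeq2 1.42.0, upper-quartile and RLE scaling, no filter or 5 CPM in 3 libraries, all 12 libraries, and leaving out each library. The test was tried on simulated counts. Members and lists were chosen with earlier results of these data known. Values in every library were given for the members of lowest p in each comparison and for a fixed set, and for lists at most the 3 called genes of lowest p; other members named with library values were chosen after their values were seen. Within groups, chi-square per degree of freedom was 9.18 to 33, so no libraries were merged. Same-numbered libraries deviated together from their groups, with correlations across genes of 0.105, 0.337 and 0.251 in the sorted and 0.147, 0.259 and 0.462 in the overexpression groups, all over 0.1, so an edgeR fit blocked by replicate number was added. This pairing comes from the data, not the labels, and miR-511-3p library 1 correlated better with mutated library 2 (0.165).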

Additional observations from a re-analysis of the deposited data

How the results depend on the processing

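With the replicate number as a block, 2788 genes passed between the sorted groups, and the same 4 of the 35 genes; the block changed no other call of a named member. DESeq2 called 7 of the 35, all lower, the 4 and Hspa1b, Dnajb11 and Creld2. The share of all genes called by DESeq2 is not given here, so these 7 calls cannot be set against it. Other fits with all libraries called 3 to 5. Leaving out 1 library gave 2 to 6 called, all lower, Herpud1 and Xbp1 among them each time. Over all genes such fits gave 1270 to 4707 called, 390 to 2356 higher and 860 to 2351 lower, most of them without CD11c+ library 1 and fewest without MRC1+ library 2 or 3. Upper-quartile scaling moved the split to 1348 higher and 1325 lower, where TMM gave 1080 higher and 1517 lower. In the overexpression comparison the block called 1 gene, lower (Hspg2), and DESeq2 and the fit of all 12 libraries 1 gene each, higher (Mir511). No called member reversed. Among named members that did not pass, Atf4 turned in sign between the sorted groups, to 0.0065 with the block, 0.0066 with no filter, 0.049 with upper-quartile scaling and 0.020 with the stricter filter. With a library left out, Atf4 ranged from -0.11 to 0.17 and Ddit3 from -0.12 to 0.099. In the overexpression comparison, leaving out a library gave -0.048 to 0.027 for Atf4, -0.12 to 0.21 for Dnajb1, -0.043 to 0.65 for Hspa1b, -0.077 to 0.35 for Hspa5 and -0.013 to 0.15 for Xbp1, with the negative ends of the last 3 reached without miR-511-3p library 2 or mutated library 1. The cause of these changes was not tested. Hspb1 and Ddit3 were the least counted members, and the part of depth in their scatter was not tested. With 3 libraries per group small differences may be missed.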
